A study of Mus musculus with 6 samples.

Results

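The Wnt genes of cultured mouse bone marrow cells were followed after treatment with retinoic acid (RA). A gene was taken by its name alone, with no measured value in the rule: names made of Wnt, Fzd, Sfrp, Dkk or Rspo and a number, together with Frzb, Wif1, Lrp5, Lrp6, Axin2, Tcf7, Lef1, Nkd1 and Nkd2. This gave 44 of the 25722 listed genes, namely 15 ligands, 3 R-spondins, 12 receptors, 9 secreted inhibitors and 5 feedback genes or nuclear factors.

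Wnt ligands are secreted lipid-modified proteins that bind Frizzled (Fzd) receptors, and in the β-catenin branch of the pathway also the co-receptors Lrp5 and Lrp6. R-spondins raise the number of receptors on the cell surface, whereas Sfrp proteins, Frzb and Wif1 bind the ligands outside the cell, and Dkk1 and Dkk2 bind Lrp5 and Lrp6. β-catenin then acts with Tcf7, Lef1 and related factors in the nucleus, where Axin2, Nkd1 and Nkd2 are switched on as inhibitors of the same pathway. In bone marrow, Wnt signalling is known for its part in the choice of stromal cells between bone and fat.

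RNA sequencing was performed on 6 cultures of cells named BM-MSCs in the labels and BMSCs in the study, grown from the marrow of wild-type C57BL/6 mice. The control group held 3 cultures given the solvent DMSO, and the RA group held 3 cultures given all-trans RA (ATRA), which the labels put at 1 μM and the study's methods at a lower concentration, for 48 h in the labels and a shorter time in the methods. Both groups were kept in serum, ROCK inhibitor and low oxygen, were used at an early passage and received no cytokine. The labels speak of fewer replicates than the 3 libraries per group analysed here, and whether mice were pooled is not stated, so the p-values measure only the spread between these libraries. The libraries held between 14737636 and 18511905 counts, and by these totals 3 counts were worth between 0.162 and 0.204 CPM, the unit of library-scaled counts. The CPM of each gene was taken with totals adjusted by the TMM method.

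Cyp26b1, the enzyme that degrades RA, checked the treatment label. Its CPM was 4.97, 5.95 and 4.67 in control 1, 2 and 3 and 124, 109 and 87.0 in RA 1, 2 and 3, with a log2 fold change of 4.35 ± 0.19 and an adjusted p of 0.00207 by edgeR. In summed CPM, the markers of macrophages stood above those of the labelled cell type. The summed CPM of 14 macrophage markers, all of which were detected in every library, was between 20371 and 22639 in the control libraries and between 20139 and 21319 in the RA libraries. The 14 mesenchymal stromal markers summed to 2942, 5181 and 3168 CPM in the control libraries and 4287, 3307 and 2456 CPM in the RA libraries, with Thy1 at 0 in RA 3. In such bulk RNA, fewer cells of a type and less RNA per cell cannot be told apart. A principal component analysis over 1000 genes of highest variance did not order the libraries by treatment on its leading axis, which carried 57.2% of the variance. There, control 2, RA 1 and RA 2 (library set 1) lay apart from control 1, control 3 and RA 3 (library set 2). The sets come from the data and not from a label, and results are therefore also given from a fit with the set as a term beside treatment. Since the set was drawn from these same counts, the p-values of that fit can be too small. In it, 15.1% of all tested genes had an unadjusted p under 0.05, against 5.25% by edgeR on treatment alone.

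Of the 28 Wnt genes that passed the filter on low counts, the R-spondin Rspo2 and the secreted inhibitors Sfrp2 and Sfrp4 had the largest fitted fold changes after RA. Mean CPM was 3.87-fold lower for Rspo2, 5.1-fold lower for Sfrp2 and 3.57-fold higher for Sfrp4, and in each case the 3 RA libraries lay on one side of the 3 control libraries. By the quasi-likelihood test of edgeR on treatment alone, none of these 28 genes was called at an adjusted p under 0.05 with a change of at least 1.5-fold. Of all 13842 tested genes, 0.0433% were called by it, and 8 of the 28 had an unadjusted p under 0.05, against 5.25% of all tested genes. With the library set as a term, Sfrp4 rose, against 0.744% of all genes called higher, while Rspo2, Sfrp2 and Dkk3 fell, against 0.795% called lower. DESeq2 without the set called Sfrp4 higher (0.542% of the genes it tested) and Rspo2 and Sfrp2 lower (0.216%). In CPM, the RA libraries all lay above the control libraries for 5 of the 28 genes (Wnt4, Wnt10b, Wnt2b, Fzd6 and Sfrp4) and for 5.7% of all tested genes, and all below them for 5 (Rspo2, Fzd5, Dkk3, Wif1 and Sfrp2) and for 6.87%. Sfrp2 passed the filter only through its control libraries and Fzd6 only through its RA libraries, so that a difference was built into their being tested.

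**Figure D1:**
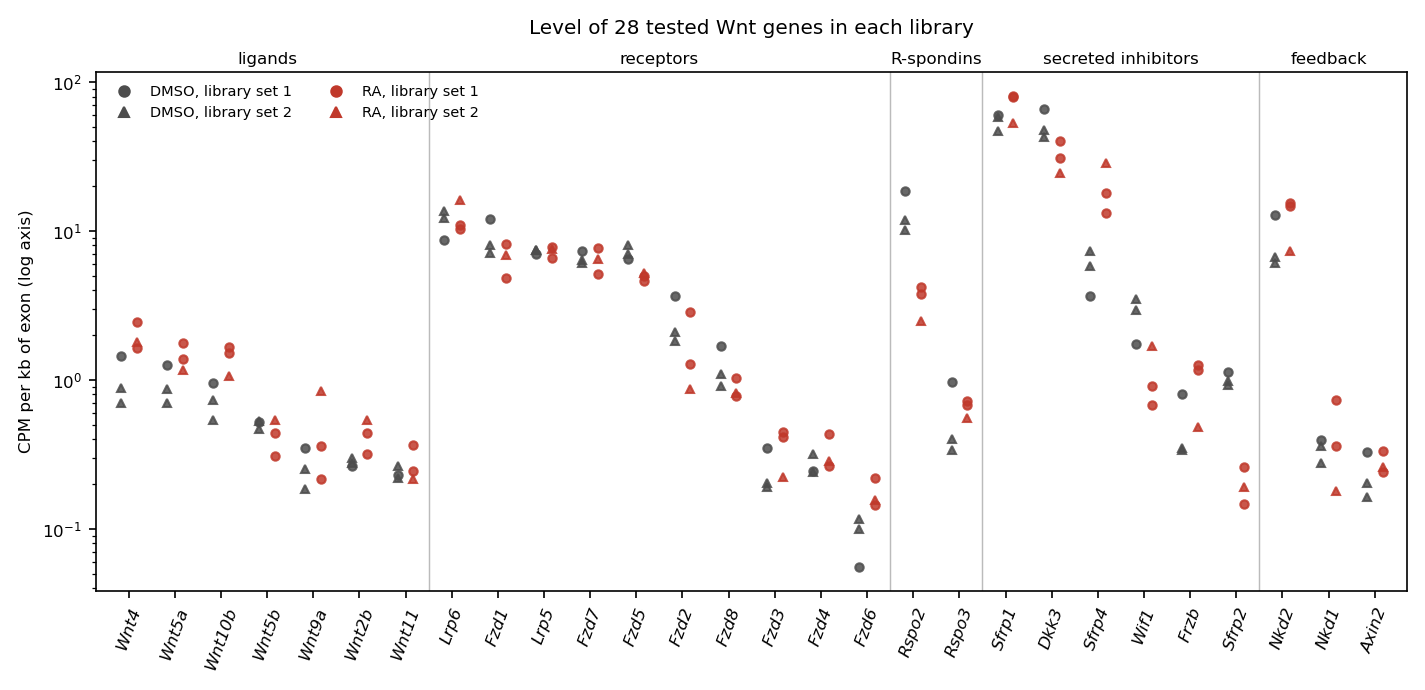
Level of the 28 tested Wnt genes in each library, as CPM per kilobase of exon on a log axis, ordered by role and by mean level. Grey points are control (DMSO) and red points RA libraries, circles are library set 1 and triangles set 2. Sfrp1 and Dkk3 stand highest, and the groups are parted for Rspo2, Sfrp4 and Sfrp2.

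Rspo2, a secreted protein that strengthens Wnt signals at the cell surface, lies at chr15:43020794-43170826 on the minus strand (GRCm38, the assembly also called mm10). Its CPM was 52.0, 94.6 and 60.8 in control 1, 2 and 3 and 21.6, 19.4 and 12.7 in RA 1, 2 and 3. The highest RA library was thus below the lowest control library, and control 2 stood above the other control libraries. The mean was 69.1 ± 22.5 CPM (SD, n = 3) in control and 17.9 ± 4.64 CPM in RA cells. The log2 fold change was −1.95 ± 0.30 (SE) with an adjusted p of 0.193 on treatment alone, and −2.18 ± 0.11 with an adjusted p of 0.000461 with the library set as a term. Within set 1 the log2 difference of RA from control was −2.18, and within set 2 it was −2.11, so the difference was about as large in both. DESeq2 gave an adjusted p of 1.45e-06.

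The other R-spondins were scarce. Rspo3, a relative of Rspo2, had 1.05, 2.97 and 1.24 CPM in the control libraries and 2.11, 2.21 and 1.70 CPM in the RA libraries, with overlapping groups and a log2 fold change of 0.18 ± 0.44. Its sign changed to −0.02 ± 0.30 with the set term. Rspo1 had 3 counts over all 6 libraries. Per kilobase of exon, the level of Rspo2 (8.51 CPM per kb on average) was the highest of the R-spondins, and the summed level of all 3 was 10.6, 19.5 and 12.4 CPM per kb in control and 4.91, 4.50 and 3.03 CPM per kb in RA libraries.

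The summed CPM of the stromal markers was lower after RA within both sets, as was Rspo2, but the markers taken singly did not share a direction. Within set 1, the sum was 5181 in the control library against 4287 and 3307 in the RA libraries, and within set 2 it was 2942 and 3168 against 2456. Of the 12 tested, 6 had a positive and 6 a negative log2 fold change, with a median of 0.0064 (−0.15 with the set term). Of these 12 markers, 2 lay above and 2 below control in every RA library, against 5.7% and 6.87% of all tested genes. Among the stromal markers, Lepr rose with the set term (0.490, 0.478 and 0.481 CPM in control against 2.50, 3.04 and 9.47 CPM in RA libraries) and Ly6a fell (34.6, 34.1 and 39.5 against 20.3, 19.8 and 17.9 CPM), against 0.744% and 0.795% of all tested genes. Lepr passed the filter only through its RA libraries, so that a difference was built into its being tested. The part of these markers in the values of Rspo2, Sfrp2, Dkk3 and Sfrp4 was not tested. Fibroblast and smooth muscle markers summed to 1351 against 1199 and 928 CPM within set 1, and to 541 and 585 against 430 CPM within set 2, with Lum at 0 in a library. T and NK cell markers (7 of 12 listed) summed to 14.6 CPM at most and B cell markers (4 of 5 listed) to 5.52 CPM at most. Cd3e, Cd8a, Trac, Lck and Klrb1c among the former, and Cd79a, Ms4a1 and Pax5 among the latter, were at 0 in some libraries. Endothelial markers summed to between 6.80 and 16.4 CPM in control and between 9.88 and 17.2 CPM in RA libraries. Osteoblast markers summed to 471 against 519 and 505 CPM within set 1, and to 312 and 338 against 461 CPM within set 2, with Bglap and Dmp1 at 0 in some libraries. The sum was higher after RA within both sets, but of the 5 tested 2 had a positive and 3 a negative log2 fold change (median −0.39, and −0.36 with the set term). Of these 5 markers, 1 lay above and 2 below control in every RA library, against 5.7% and 6.87% of all tested genes. The part of the osteoblast markers in the value of Sfrp4 was not tested.

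**Figure D2:**
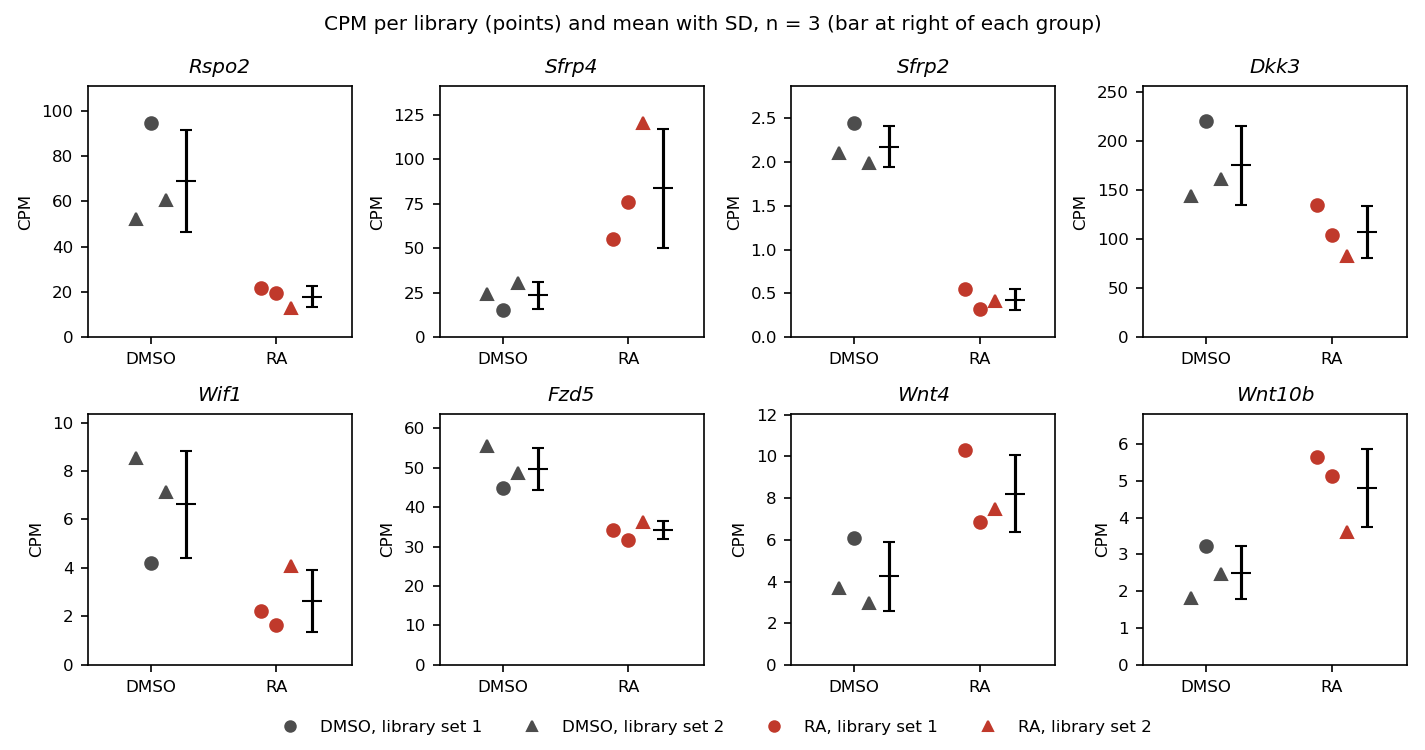
CPM of 8 Wnt genes in each library, with the mean and SD of each group (n = 3) as a bar to the right of its points. Circles are library set 1 and triangles set 2. In every panel the 3 RA libraries lie on one side of the 3 control libraries, with the widest gaps for Rspo2, Sfrp4 and Sfrp2 and the narrowest for Wif1.

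Secreted inhibitors had the highest summed level per length of the roles, and the members called with the library set as a term changed in opposite directions. Of the 9, 6 were tested, 1 (Sfrp4) rose and 2 (Sfrp2, tested through its control libraries alone, and Dkk3) fell in that fit, against 0.744% and 0.795% of all tested genes. On treatment alone, 4 had an unadjusted p under 0.05, against 5.25%. Sfrp4, a secreted frizzled-related protein that is also made by bone cells, lies at chr13:19623104-19632994 on the plus strand. It had 24.5, 15.3 and 30.5 CPM in control 1, 2 and 3 and 55.1, 75.7 and 120.3 CPM in RA 1, 2 and 3. All RA libraries were above all control libraries, and RA 3 was the highest. The mean was 23.4 ± 7.65 CPM in control and 83.7 ± 33.3 CPM in RA cells. On treatment alone the log2 fold change was 1.84 ± 0.36 with an adjusted p of 0.307, and with the set term it was 2.11 ± 0.15 with an adjusted p of 0.00200. The within-set differences were 2.04 and 2.12, and DESeq2 gave an adjusted p of 0.000283.

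Sfrp2, a close relative of Sfrp1, lies at chr3:83766321-83774316 on the plus strand and was a gene of low counts. It had 30, 46 and 29 counts in control 1, 2 and 3 and 10, 5 and 6 counts in RA 1, 2 and 3. This corresponds to 2.10, 2.44 and 1.99 CPM against 0.555, 0.316 and 0.409 CPM, and the groups did not overlap. Its log2 fold change was −2.32 ± 0.32 with an adjusted p of 0.166 on treatment alone, which was the smallest of the Wnt genes, and −2.39 ± 0.33 with an adjusted p of 0.0167 with the set term. With the set term and any control library or RA 3 left out, its adjusted p was between 0.0981 and 0.366, and the call was lost. The log2 fold change in the set-term fits with a library left out stayed between −2.56 and −2.20. DESeq2 gave an adjusted p of 0.00147.

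Dkk3, a divergent Dickkopf protein whose place in the Wnt pathway is less settled than that of Dkk1, lies at chr7:112116017-112159057 on the minus strand. It had 144, 221 and 161 CPM in the control libraries and 135, 104 and 82.5 CPM in the RA libraries. The groups did not overlap, although RA 1 came close to control 1. The mean was 175 ± 40.2 CPM in control and 107 ± 26.5 CPM in RA cells, a 1.64-fold lower level. Treatment alone gave a log2 fold change of −0.71 ± 0.24 with an adjusted p of 0.795, and −0.89 ± 0.12 with an adjusted p of 0.0150 with the set term. Within the sets the log2 difference was −0.89 and −0.88. Across the set-term fits with a library left out, the log2 fold change stayed between −0.95 and −0.80. The call was lost in the set-term fits without any control library or without RA 3 (adjusted p between 0.0996 and 0.193), and DESeq2 without the set did not make it (adjusted p of 0.499).

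Wif1, which binds Wnt ligands outside the cell, had 8.53, 4.20 and 7.14 CPM in the control libraries and 2.22, 1.64 and 4.09 CPM in the RA libraries. RA 3 lay only just below control 2. Its log2 fold change of −1.32 ± 0.42 had an adjusted p of 0.795, and −1.02 ± 0.20 with the set term had an adjusted p of 0.0613. Wif1 also differed between the library sets, with a log2 difference of set 1 from set 2 of −0.82 within control and −0.93 within RA cells.

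Sfrp1, which binds Wnt ligands and was the Wnt gene with the highest level per length (63.1 CPM per kb), had 206, 262 and 255 CPM in control and 347, 355 and 232 CPM in RA libraries. RA 3 fell within the control range, and the log2 fold change of 0.37 ± 0.20 had an adjusted p of 0.795. Frzb, also known as Sfrp3, had 1.12, 2.60 and 1.10 CPM against 3.77, 4.05 and 1.57 CPM, with overlapping groups. Its log2 fold change was 0.95 ± 0.50, and 0.55 ± 0.22 with the set term (adjusted p of 0.314). Dkk2 (44 counts over all libraries), Sfrp5 (2 counts) and Dkk1 (1 count) were below the filter. Dkk2 had 0.420, 0.372 and 0.343 CPM against 0.4996, 0.443 and 0.681 CPM, levels close to those of a few counts.

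The makeup of the secreted inhibitors differed between the groups while their sum did not part them. Their summed level per length was 101, 133 and 118 CPM per kb in control and 135, 132 and 109 CPM per kb in RA libraries. Of this sum, Sfrp4 held 5.82%, 2.75% and 6.19% in control 1, 2 and 3 and 9.74%, 13.7% and 26.4% in RA 1, 2 and 3. The share of Dkk3 was 42.5%, 49.4% and 40.7% in control and 29.8%, 23.3% and 22.5% in RA libraries, and neither share overlapped between the groups. Sfrp1 held between 45.0% and 49.4% in control and between 48.7% and 61.3% in RA libraries. The ratio of the level of Sfrp4 per kb to that of Dkk3 was 0.137, 0.0557 and 0.152 in control and 0.327, 0.587 and 1.17 in RA libraries. Since Sfrp4 was higher and Dkk3 lower in every RA library, the parting of this ratio was fixed beforehand.

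The sequences before the starts of Sfrp2 and Wif1 are shown as examples. Both genes had lower counts in every RA library and an entry in RefSeq's promoter table, as did Fzd5, which is not shown. The sequences are read on the plus strand of GRCm38.p6, at chr3:83766071-83766320 for Sfrp2 and chr10:121033754-121033959 for Wif1, up to the first base of the annotated gene. The capitals mark the letters TATAAA or ATAAAA on either strand.
Sfrp2: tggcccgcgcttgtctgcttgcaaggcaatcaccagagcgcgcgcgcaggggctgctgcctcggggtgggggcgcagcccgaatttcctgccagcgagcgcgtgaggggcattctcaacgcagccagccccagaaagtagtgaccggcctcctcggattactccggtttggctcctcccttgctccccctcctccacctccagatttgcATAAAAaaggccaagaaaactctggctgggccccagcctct
Wif1: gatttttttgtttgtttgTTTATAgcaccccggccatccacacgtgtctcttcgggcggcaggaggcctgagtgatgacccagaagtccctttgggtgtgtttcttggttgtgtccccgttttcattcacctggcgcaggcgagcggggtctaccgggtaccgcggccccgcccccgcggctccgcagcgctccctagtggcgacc
In Sfrp2 the marked letters stand shortly before the start, and in Wif1 they stand at the far end of the window. Such letters occur in 22.8% of the 32851 promoters of the table, counted over the 250 bases before the start. Neither window held AGGTCA, the half-site of retinoid receptors, or CTTTGA, the core letters bound by Tcf7 and Lef1, on either strand. Of the 44 Wnt genes, 29 were matched to 36 promoters. Rspo2, Sfrp4 and Dkk3 were among those without an entry, so their promoters were not searched. AGGTCA was found before Tcf7 and Wnt16 (14.02% of all promoters), and CTTTGA before Dkk1, Frzb, Fzd1, Lef1, Wnt11 and Wnt5b (13.8%). Direct repeats of AGGTCA or AGTTCA spaced by 1, 2 or 5 bases were found in none of the 36, and in 0.067%, 0.0365% and 0.0335% of all promoters.

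Among the ligands, Wnt4 and Wnt10b were the tested members with a higher CPM in every RA library and an unadjusted p under 0.05, and no ligand was called in either fit. Of 15 ligands, 7 were tested, of which 6 had a positive and 1 a negative log2 fold change, with a median of 0.61. Wnt4, known for its role in kidney and gonad development, lies at chr4:137277489-137299726 and was the ligand with the highest level per length (1.49 CPM per kb). It had 3.71, 6.11 and 2.95 CPM in control and 10.3, 6.83 and 7.49 CPM in RA libraries. The groups were parted narrowly, since control 2 came close to RA 2. The log2 fold change was 0.94 ± 0.32 with an adjusted p of 0.795, and 0.81 ± 0.24 with an adjusted p of 0.198 with the set term. Wnt4 is shown as the ligand of the highest level, with the bases from the plus strand at chr4:137277385-137277488 in lower case, since no letters searched for were found.
Wnt4: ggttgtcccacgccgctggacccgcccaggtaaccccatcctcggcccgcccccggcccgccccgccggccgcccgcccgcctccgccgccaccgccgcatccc
The 250 bases before the RefSeq start of Wnt4 held 85.2% G and C, against 63.6% for Sfrp2, 62.8% for Wif1 and a median of 52.4% over all promoters.

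Wnt10b, a ligand of the β-catenin branch that favours bone formation by stromal cells, had 1.82, 3.24 and 2.47 CPM in control and 5.66, 5.12 and 3.61 CPM in RA libraries. All RA libraries were above all control libraries, with a log2 difference of 0.65 within each set. The log2 fold change was 0.93 ± 0.30 (adjusted p of 0.795), and 0.74 ± 0.21 with the set term (adjusted p of 0.164). Wnt2b had 1.26, 1.12 and 1.17 CPM against 1.83, 1.33 and 2.25 CPM, which did not overlap, and its log2 fold change of 0.61 ± 0.29 had an adjusted p of 0.795. Wnt5a, which acts mainly without β-catenin, had 5.46, 9.88 and 6.80 CPM against 13.8, 10.8 and 9.13 CPM. The lowest RA library lay under control 2, and its log2 fold change was 0.61 ± 0.28.

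The remaining ligands were low. Wnt5b (0.467 CPM per kb), Wnt9a (0.368 CPM per kb) and Wnt11 (0.256 CPM per kb) had log2 fold changes of −0.23 ± 0.30, 0.81 ± 0.55 and 0.20 ± 0.32, all with overlapping groups. The value of Wnt9a rested on RA 3, which had 2.79 CPM against at most 1.20 CPM in the other libraries, and without it the log2 fold change was 0.11. The other 8 ligands were not tested, with 52 counts over all libraries for Wnt6, 7 for Wnt16, 5 for Wnt7b, 3 for Wnt2, 3 for Wnt10a and 1 each for Wnt1, Wnt3 and Wnt8a. Summed per length, the 15 ligands reached 3.64, 5.37 and 3.72 CPM per kb in control and 7.90, 5.97 and 6.42 CPM per kb in RA libraries, with no overlap.

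**Figure D3:**
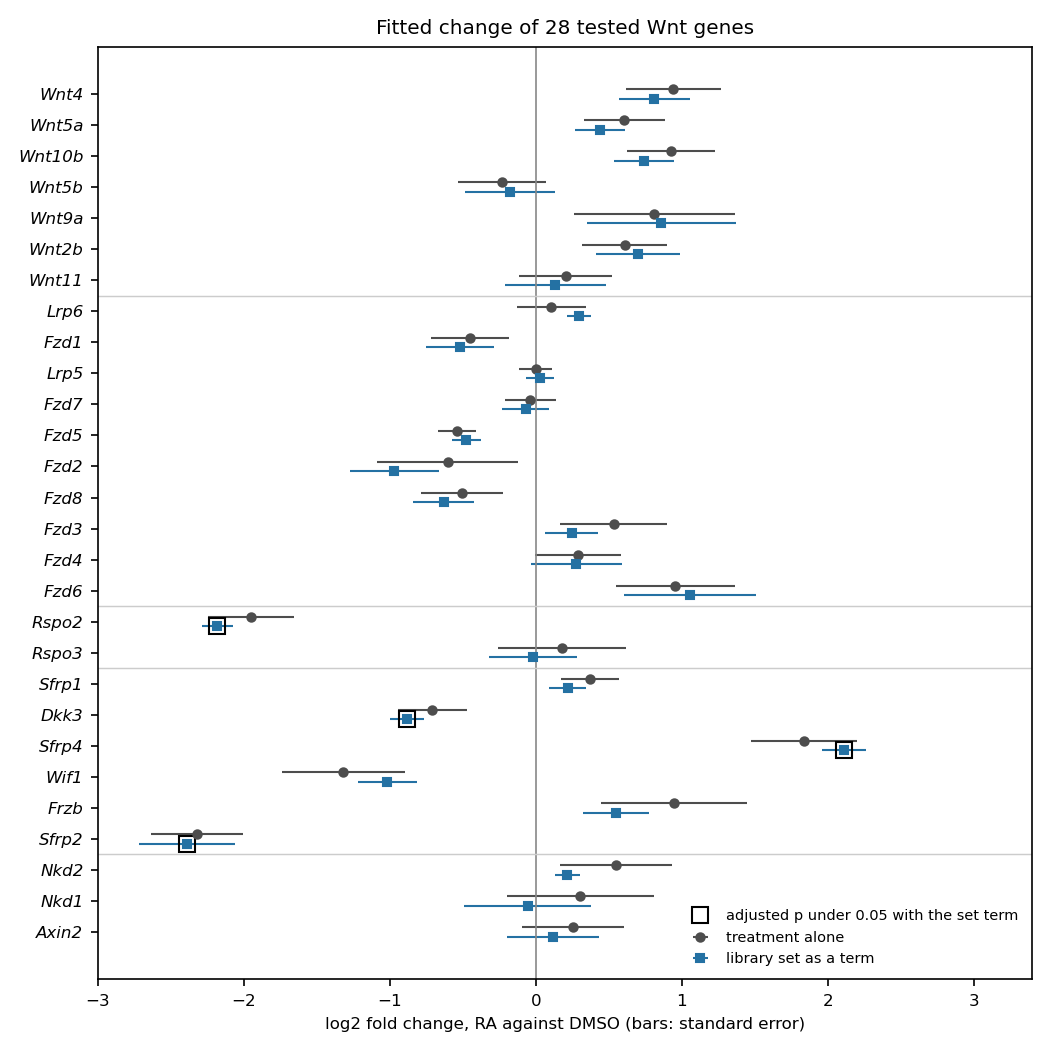
Fitted log2 fold change of RA against control for the 28 tested Wnt genes, with standard errors as bars. Grey circles are from the fit on treatment alone and blue squares from the fit with the library set as a term. Black frames mark the 4 genes called with the set term, which are Rspo2, Dkk3, Sfrp4 and Sfrp2.

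No receptor gene was called in either fit, among 10 tested of 12. Lrp6, the co-receptor of β-catenin signalling, had the highest level per length of them (11.98 CPM per kb). It had 167, 119 and 187 CPM in control and 140.2, 149 and 220.1 CPM in RA libraries, with overlapping groups and a log2 fold change of 0.11 ± 0.24. With the set term this was 0.30 ± 0.08 with an adjusted p of 0.154. The related co-receptor Lrp5 was nearly level, with 71.3 ± 2.50 CPM in control and 71.3 ± 6.62 CPM in RA cells and a log2 fold change of 0.00 ± 0.11.

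Fzd5 was the receptor whose groups were parted with the RA libraries lower. It had 55.4, 44.8 and 48.6 CPM in control and 34.3, 31.7 and 36.3 CPM in RA libraries. Its log2 fold change was −0.54 ± 0.13 with an adjusted p of 0.450, and −0.48 ± 0.10 with an adjusted p of 0.0709 with the set term. On the opposite strand, 17.83% of its exonic bases overlap the gene Gm38058, which held 38 counts over all libraries against 3995 for Fzd5. Fzd6 had 0.560, 0.266 and 0.481 CPM in control and 1.05, 0.696 and 0.749 CPM in RA libraries, from 61 counts in all, and its log2 fold change of 0.96 ± 0.41 had an adjusted p of 0.795.

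In the fit with the set term, 5 of the 10 tested receptors (Lrp6, Fzd5, Fzd6, Fzd2 and Fzd8) had an unadjusted p under 0.05, as did 15.1% of all tested genes. Fzd2 had 7.69, 13.4 and 6.73 CPM against 10.4, 4.68 and 3.20 CPM, so that RA was lower than control within each set although the pooled groups overlapped. The log2 fold change of Fzd2 was −0.60 ± 0.48, and −0.97 ± 0.31 with the set term (adjusted p of 0.215). On treatment alone with a library left out, it ranged from −1.21 (without RA 1) to −0.23 (without control 2). Fzd8 had 6.51, 10.1 and 5.43 CPM against 6.11, 4.62 and 4.84 CPM, with a log2 fold change of −0.51 ± 0.28. The others were Fzd1 (7.87 CPM per kb, log2 fold change −0.45 ± 0.27), Fzd7 (6.52 CPM per kb, −0.04 ± 0.18), Fzd3 (0.304 CPM per kb, 0.53 ± 0.37) and Fzd4 (0.296 CPM per kb, 0.29 ± 0.29). Fzd10 (12 counts) and Fzd9 (4 counts) were below the filter. The 12 receptors together had between 45.1 and 47.6 CPM per kb in control and between 34.9 and 44.8 CPM per kb in RA libraries.

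The feedback genes and nuclear factors showed no called change. Axin2, a target and inhibitor of β-catenin signalling that is often read as its reporter, had 1.12, 1.81 and 0.893 CPM in control and 1.33, 1.83 and 1.43 CPM in RA libraries. The groups overlapped, and the log2 fold change of 0.25 ± 0.35 had an adjusted p of 0.858. Nkd2, which restrains the signal at Dishevelled, was the most abundant of them (10.5 CPM per kb). It had 32.1, 62.1 and 29.3 CPM against 74.2, 71.4 and 35.4 CPM, a pattern that followed the library sets, with a log2 difference of set 1 from set 2 of 1.01 within control and 1.03 within RA cells. Its log2 fold change was 0.55 ± 0.39, and 0.22 ± 0.09 with the set term (adjusted p of 0.305).

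Nkd1, a relative of Nkd2, had 1.26, 1.81 and 1.65 CPM against 3.33, 1.64 and 0.818 CPM. The RA libraries spread on both sides of the control libraries, and the log2 fold change of 0.30 ± 0.50 turned to −0.06 ± 0.44 with the set term. Tcf7 and Lef1, the nuclear partners of β-catenin, were below the filter. Tcf7 had 4, 5 and 6 counts in control and 8, 12 and 6 in RA libraries, and Lef1 had 4, 6 and 3 counts against 12, 4 and 19. DESeq2, which tested both, called neither (adjusted p of 0.974 for each).

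In both library sets, every RA library had a higher CPM than every control library of its set for 10 of the 28 tested genes. This held for 18.5% of all tested genes. The 10 genes were Sfrp4, Wnt4, Wnt10b, Wnt2b, Wnt5a, Fzd3, Fzd6, Lrp6, Frzb and Nkd2. Every RA library was lower than every control library of its set, in both sets, for 8, against 23.5% of all tested genes. The 8 genes were Rspo2, Sfrp2, Dkk3, Wif1, Fzd5, Fzd1, Fzd2 and Fzd8. No spread can be given for the control cells of set 1 or the RA cells of set 2, with 1 library each. The difference between the sets, taken within control and within RA cells and averaged, was at least 2-fold for 2 of the 28 genes (Nkd2 and Frzb), and for 8.56% of all tested genes. Over the 28 genes the median log2 fold change was 0.23, against −0.018 over all tested genes, and 0.13 with the set term, with 18 positive and 10 negative values on treatment alone.

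**Figure D4:**
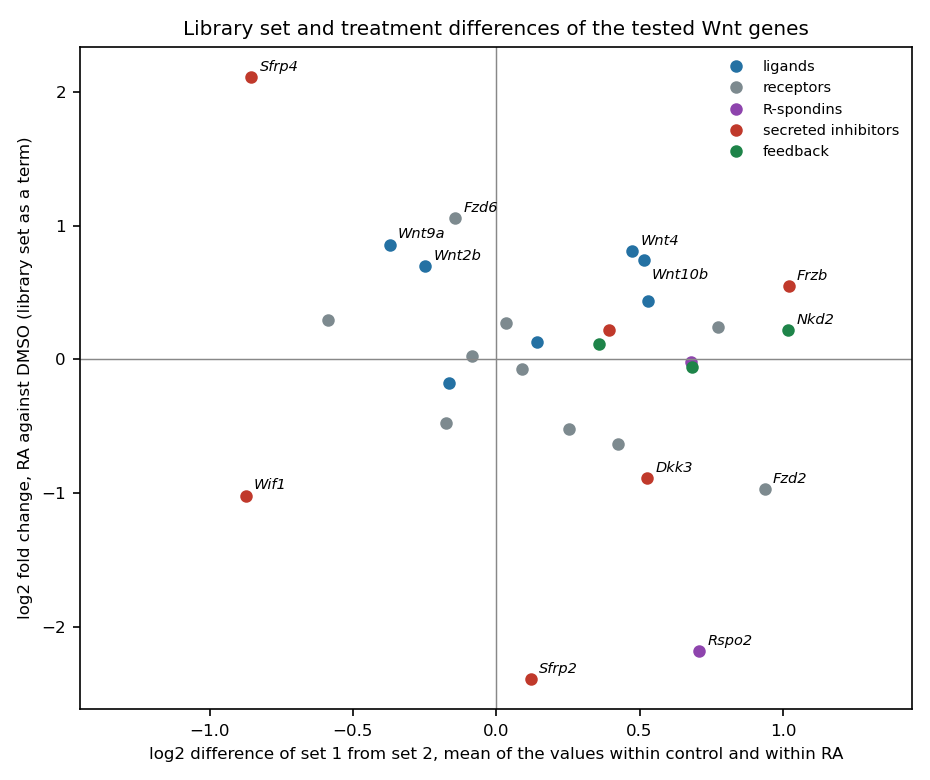
Each point is 1 of the 28 tested Wnt genes, with the log2 difference of library set 1 from set 2, averaged over the values within control and within RA cells, on the horizontal axis and the fitted log2 fold change of RA against control with the set as a term on the vertical axis. Rspo2 (0.71) and Sfrp4 (−0.85) differ between the sets and lie farther from 0 with treatment, while the points of Nkd2 and Frzb lie farther from 0 between the sets than with treatment.

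The rest of the pathway was read from a list of 45 genes for secretion, surface regulation and signal transduction, of which 43 were listed and 39 tested. None was called on treatment alone, 4 had an unadjusted p under 0.05 (5.25% of all tested genes), and 12 had a positive and 27 a negative log2 fold change (52.7% of all tested genes were negative). Lgr6, a receptor for R-spondins, was the member called higher with the set term (0.744% of all tested genes), and no member was called lower. It had 3.15, 5.31 and 2.13 CPM in control and 21.6, 17.3 and 9.47 CPM in RA libraries, with no overlap. The log2 fold change of Lgr6 was 2.18 ± 0.43 (adjusted p of 0.320), and 1.86 ± 0.19 with the set term (adjusted p of 0.00621), while Rspo2, a ligand of this receptor family, had lower counts in the same libraries. The related receptor Lgr4 had 11.5, 14.3 and 13.5 CPM against 22.2, 16.5 and 16.6 CPM, with a log2 fold change of 0.49 ± 0.18 and an adjusted p of 0.795.

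Of the 23 genes for signal transduction, 19 had a negative log2 fold change, against 52.7% of all tested genes, and the median was −0.20, with no gene called. Bcl9l, a co-activator of β-catenin, had a log2 fold change of −0.59 ± 0.20 and Tle2, a co-repressor of the Tcf factors, of −0.37 ± 0.14, both with an adjusted p of 0.795. Ctnnb1, the gene of β-catenin, had 487, 445 and 490.3 CPM against 434, 348 and 489 CPM and a log2 fold change of −0.16 ± 0.16. Wls and Porcn, which carry and lipidate Wnt ligands on their way out of the cell, had log2 fold changes of −0.02 ± 0.11 and 0.17 ± 0.22. The sign of Wls turned to 0.020 when the libraries were scaled by their totals alone.

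Of 17 genes known as Wnt targets in various tissues, 16 were listed, 15 tested and none called on treatment alone, and 4 of the 15 had an unadjusted p under 0.05 (5.25% of all tested genes). With the set term 1 target rose and 3 fell, against 0.744% and 0.795% of all tested genes. Tnfrsf19, a TNF receptor family member, rose from 2.24, 1.06 and 1.58 CPM in control to 6.44, 6.52 and 7.15 CPM in RA libraries (log2 fold change of 2.21 ± 0.25, adjusted p of 0.00840 with the set term). Tnfrsf11b, the gene of osteoprotegerin, a decoy receptor that restrains bone resorption, fell from 10.0, 21.2 and 12.5 CPM to 5.66, 6.07 and 3.07 CPM (−1.86 ± 0.15, adjusted p of 0.00257). Gja1, which encodes connexin 43, had 188, 181 and 189 CPM against 120.5, 117 and 126 CPM, with no overlap (−0.59 ± 0.07, adjusted p of 0.0103). Ccn5, listed as a target under its older name Wisp2 and named after its values were seen, had 52.2, 137 and 55.4 CPM against 67.8, 40.9 and 17.6 CPM. Its groups overlapped, and the fall of 1.46 on the log2 scale with the set term had an adjusted p of 0.0150. Bmp4 had a log2 fold change of −0.91 ± 0.31 on treatment alone and −0.96 ± 0.32 with the set term, with adjusted p of 0.795 and 0.243. The targets called did not share a direction. Over all 15 tested targets, 6 had a positive and 9 a negative log2 fold change on treatment alone, with a median of −0.21.

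**Figure D5:**
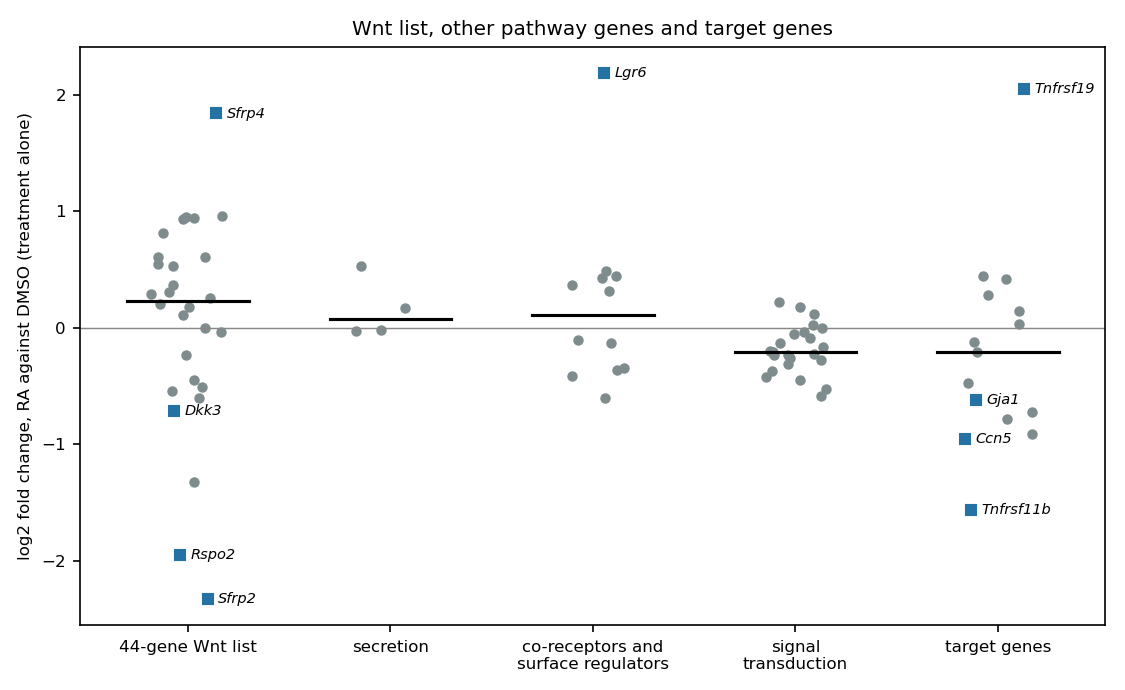
Fitted log2 fold change of RA against control, from the fit on treatment alone, for the tested genes of the 44-gene Wnt list, of 3 lists of other pathway genes and of the target list. Each point is a gene, black lines are medians, and named blue squares are genes called with the library set as a term. Most signal transduction genes lie below 0 and none of them is named.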

How the data were processed

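RNA of 6 cultures was sequenced after library preparation with a transposase kit, whose strand setting is not stated. The authors deposited, for each library, the unscaled counts of reads on genes. The submitters' processing notes name Bowtie2 2.2.3 and mm10, and the counting program is not given in the sources used here. All 25722 gene identifiers were found in GENCODE M21 (GRCm38), which gave coordinates and exon lengths, and 24 names that had been turned into dates were replaced by its symbols.

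Counts were analysed in R 4.3.3 with edgeR 4.0.16 (TMM scaling, filterByExpr with a minimum of 0.6577 CPM in 3 libraries, quasi-likelihood F test of 3 RA against 3 control libraries), with Benjamini-Hochberg adjustment over all 13842 tested genes. A call needed an adjusted p under 0.05 and a 1.5-fold change. Levels between genes were compared as CPM per kilobase of exon. Groups and replicate numbers came from the labels. The correlations of the deviations of same-numbered libraries were −0.510, 0.343 and 0.572, so the numbers were not treated as pairs. Alternatives were other scalings, filters and thresholds, the likelihood ratio test, DESeq2 1.42.0, leaving out each library, the replicate block and the library set as a term. DESeq2 with the set, and the set term with a library left out, were added after seeing the data.

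The Wnt genes and all gene lists were chosen with earlier results of these data known. Values in every library were given for tested Wnt genes with an unadjusted p under 0.05 in either edgeR fit, with groups that did not overlap, or with the highest level per length in their role, and for Axin2, Tcf7, Lef1, Nkd1 and Nkd2. Of the other pathway and target lists, genes with an unadjusted p under 0.05 on treatment alone were named, with Ctnnb1, Porcn and Wls. Overlapping genes on the opposite strand of 9 Wnt genes held at most 38 counts. The steps were tested on simulated data. Promoters were those of RefSeq on GRCm38.p6.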

Additional observations from a re-analysis of the deposited data

How the results depend on the processing

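No Wnt gene was called by edgeR's quasi-likelihood test under either other scaling, with at least 10 counts in every library, without the fold threshold, with the replicate block or with any library left out (between 0 and 0 calls in each direction). The higher calls numbered 1 with the likelihood ratio test, 1 with the set term, 1 with DESeq2, 1 with DESeq2 and the set, and 3 at an unadjusted p under 0.05 beside a 1.5-fold minimum, against 0.672%, 0.744%, 0.542%, 1.16% and 2.13% of all genes in these fits. The lower calls numbered 2, 3, 2, 4 and 4 in the same order, against 0.296%, 0.795%, 0.216%, 1.38% and 1.42%, and 1 without the filter on low counts (Rspo2), against 0.0117%. DESeq2 with the set added Wif1 to the 3 genes called lower with the set term. With the set term and a library left out, 1 to 2 genes were called higher and 1 to 4 lower. Without RA 2, Sfrp4 and Wnt4 were called higher and 4 genes lower, Wif1 among them, against 1.4% and 1.58% of all genes. Without RA 1, 4 were also called lower, Fzd2 among them, against 0.715%. Without control 2 or RA 3, 1 library set held only 1 treatment. The change then rested on the other set, with 1 library in a group. Over all fits with the set term and a library left out, the share of all genes called ran from 0.254% (without control 1) to 2.98% (without RA 2). Rspo2 and Sfrp4 were called in all 6 of these fits, with adjusted p up to 0.0156 and 0.0330, but Sfrp2 and Dkk3 in 2 each: without any control library or without RA 3 their adjusted p was between 0.0981 and 0.366 for Sfrp2 and between 0.0996 and 0.193 for Dkk3. Of the other pathway genes 1 was called with the likelihood ratio test, 1 with the set term, 1 with DESeq2 and 2 at an unadjusted p, and of the targets 3, 4, 3 and 4, against 0.968%, 1.54%, 0.758% and 3.55% of all genes. The replicate block changed no call of a Wnt gene. Without the filter all 44 genes were tested, and with a library left out 28 to 29. The median log2 fold change of the tested Wnt genes was 0.11 to 0.43 with a library left out, the highest without control 2. For 22 of the 28 no sign changed. Signs changed with the set term for Nkd1 (−0.056) and Rspo3 (−0.022), with the replicate block for Lrp5 (−0.0035), and with scaling by the library total for Fzd7 (0.0039) and Wls (0.020). With a library left out, the log2 fold change ranged from −0.33 to 0.66 for Nkd1, −0.032 to 0.35 for Wnt11, −0.078 to 0.83 for Rspo3, −0.13 to 0.25 for Lrp6, −0.028 to 0.074 for Lrp5, −0.16 to 0.10 for Fzd7 and −0.086 to 0.023 for Wls. The cause was not tested. Cyp26b1 lost its call without control 1 (adjusted p of 0.0548). Of the 16 Wnt genes below the filter, with 1 to 52 counts over all libraries, DESeq2 gave an adjusted p for 4 (Tcf7, Lef1, Wnt6 and Dkk2) and called none, and the fit without the filter called none of the 16.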

Other observations

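The ratio of Sfrp4 to Sfrp2 counts was 11.7, 6.26 and 15.3 in control 1, 2 and 3 and 99.2, 239 and 294 in RA 1, 2 and 3. These genes had the largest fitted rise and fall of the tested Wnt genes, so the parting followed from their choice. The RA ratios rested on 10, 5 and 6 counts of Sfrp2, which passed the filter only through its control libraries. The summed level of the 5 feedback genes and nuclear factors was 7.27, 13.7 and 6.78 CPM per kb in control and 16.6, 15.8 and 8.07 CPM per kb in RA libraries, so that it was higher in library set 1 than in set 2 in both groups.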
